A study of Mus musculus with 4 samples.

Results

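Tek and Kdr encode receptor tyrosine kinases of the endothelium, and this account describes their transcripts in mouse embryonic stem cells treated with an inhibitor of protein kinase D. They were chosen by their gene symbols from the authors' deposited table of genes that differed between cells with and without that inhibitor, and are 2 of its 1593 genes. The table had itself been selected on that comparison, since in the authors' deposited table no gene has a log2 fold change of less than 1 in size and the largest p-value is 0.0498. The direction and size of the difference of Tek and Kdr are therefore given as a description, and no p-value printed for either gene is independent evidence of a difference. RNA was sequenced from 46C cells, an embryonic stem cell line whose Sox1 gene carries a green fluorescent reporter, in 2 libraries per group. The PC group was cultured for 24 h in serum that held PD0325901, a MEK inhibitor, at 1 µM together with CID755673, an inhibitor of protein kinase D at a dose that no source used here gives. The PD group had the same serum and PD0325901 without CID755673, so MEK was inhibited in all 4 libraries. No label says whether the 2 libraries of a group came from separate cultures, and their spread may be technical. The listed genes held 433684 to 683777 reads per library, and the depth over all genes is unknown.

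Tek, also known as TIE2, is the receptor for the angiopoietins, and Kdr, also known as FLK1 or VEGFR2, is the main receptor for vascular endothelial growth factor A. ANGPT1 activates TEK and keeps mature vessels quiet, while VEGFA acts through KDR to drive the growth and survival of endothelial cells. Kdr also marks mesoderm that gives rise to blood and vessels, and in endothelial cells protein kinase D lies downstream of KDR, through phospholipase C gamma and protein kinase C.

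The promoters of Tek and Kdr are shown because the transcripts of both genes were lower in the same 2 libraries. Each run covers 250 bases before and 50 after the RefSeq start site of the gene, read on the strand of the gene, from RefSeq on build GRCm38.p6, and the capitals mark the core GGAA of ETS factor sites on either strand. The Tek run is chr4:94739039-94739338 on the plus strand and the Kdr run is chr5:75978406-75978705 on the minus strand.
Tek promoter: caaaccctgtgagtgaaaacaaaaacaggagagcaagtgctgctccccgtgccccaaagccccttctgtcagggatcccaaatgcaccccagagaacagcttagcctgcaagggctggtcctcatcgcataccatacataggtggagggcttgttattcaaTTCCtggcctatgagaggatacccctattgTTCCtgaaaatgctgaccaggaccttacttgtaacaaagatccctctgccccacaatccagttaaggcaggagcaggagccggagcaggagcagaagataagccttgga
Kdr promoter: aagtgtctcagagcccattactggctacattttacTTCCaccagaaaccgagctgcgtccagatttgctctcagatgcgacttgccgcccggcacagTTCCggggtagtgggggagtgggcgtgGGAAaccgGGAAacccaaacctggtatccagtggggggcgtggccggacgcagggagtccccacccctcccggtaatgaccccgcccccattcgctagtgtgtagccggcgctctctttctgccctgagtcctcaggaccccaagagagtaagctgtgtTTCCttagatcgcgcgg

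The ETS core was matched 2 times in the Tek run, starting 89 and 59 bases before the start site (-89 and -59), both on the opposite strand. In the Kdr run it was matched 5 times, starting at -215, -153, -126, -118 and 34, with the first transcribed base counted as 1. Of 32817 promoters of the same length, 96.0% held at least 1 such match and the median promoter held 3, so a match of these 4 letters is the rule. The GATA core GATAA was found 1 time in the Tek run, at 38, and was not found in the Kdr run (25.4% of promoters hold it). The letters ACAAAG, the core of SOX and TCF sites, were found 1 time in the Tek run, at -26, and 0 times in the Kdr run (18.7% of promoters). The GC box GGGCGG was found 2 times in the Kdr run, at -166 and -45, and 0 times in the Tek run (35.6% of promoters). An E-box, CANNTG, was found 2 times in the Tek run and 1 time in the Kdr run (72.3% of promoters), and TATAAA in neither (13.6%). All motifs were searched on both strands, the motifs could overlap, and positions give the first base on the strand of the gene. The runs differed in base composition. The Tek run had 3 CpG dinucleotides and 52.0% G and C, and the Kdr run had 19 CpG and 60.7% G and C, against medians of 7 and 52.7% over all promoters.

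Tek (ENSMUSG00000006386, chromosome 4) was read deeply in every library. It had 1462.3 and 1314.5 normalized reads in PC replicates 1 and 2, against 3279.5 and 3446.0 in PD replicates 1 and 2, where a normalized read is a read count divided by the size factor of its library. Both PC libraries lay far below both PD libraries, and the groups did not overlap. The underlying counts were 1765 and 1105 reads in PC and 3382 and 3760 reads in PD. The 95% Poisson intervals, which cover counting error only, ran from 1238.2 to 1532.2 normalized reads over the PC libraries and from 3169.8 to 3558.0 over the PD libraries. Tek averaged 1388.4 ± 104.5 normalized reads in PC and 3362.7 ± 117.7 in PD (SD, n = 2 each), so that the PC mean was 41.3% of the PD mean. On the scale of log2(normalized reads + 1) the difference, PC minus PD, was -1.28 (SE 0.10). In bulk RNA, fewer cells with a transcript and less of it per cell cannot be told apart, which holds for every gene below.

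Kdr (ENSMUSG00000062960, chromosome 5) was measured from far fewer reads than Tek. It had 36.5 and 20.2 normalized reads in PC replicates 1 and 2, against 63.0 and 80.7 in PD replicates 1 and 2. The PC libraries were again the lower ones with no overlap, although on the log2 scale PC replicate 1 lay closer to PD replicate 1 than to PC replicate 2. The counts were 44 and 17 reads in PC and 65 and 88 reads in PD. The Poisson interval of PC replicate 1, from 26.5 to 48.9 normalized reads, just overlapped that of PD replicate 1, from 48.6 to 80.3. Kdr averaged 28.3 ± 11.5 normalized reads in PC and 71.8 ± 12.5 in PD (SD, n = 2 each), and the PC mean was 39.4% of the PD mean. The log2 difference, PC minus PD, was -1.36 (SE 0.39). It was -1.77 without PC replicate 1 and -0.95 without PC replicate 2, which is inside the fold limit of the table, so the size of the difference depended on each PC library.

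**Figure D1:**
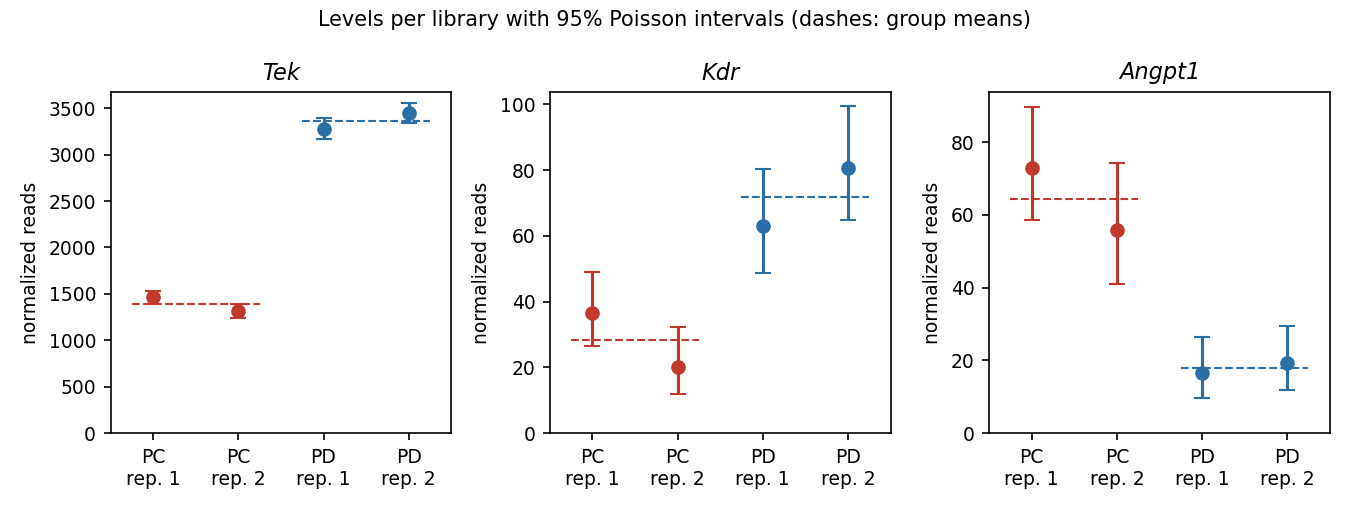
Normalized reads (linear axes from 0) of Tek, Kdr and the ligand gene Angpt1 in each PC and PD library. Points are libraries, bars are 95% Poisson intervals of the counts and dashes are group means. The PC points of Tek (1462.3 and 1314.5) and Kdr (36.5 and 20.2) lie below all PD points, and those of Angpt1 (72.9 and 55.9) lie above them.

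In the authors' deposited table the p-value was 2.19e-50 for Tek and 0.00322 for Kdr, and these placed both genes in it together with log2 fold changes of -1.28 and -1.36. The false discovery rate there was 9.44e-48 for Tek and 0.0201 for Kdr, and 70.2% of the listed genes had one under 0.05. In limma, with Benjamini-Hochberg adjusted p-values over the 31432 genes of the authors' test and a threshold of 0.05, Tek was called (adjusted p = 0.014) and Kdr was not (adjusted p = 0.41). That fit called 31.1% of the listed genes, 495 in all. Since both genes were listed for this same comparison, nothing is read from 1 of the 2 being called. The same holds for groups that do not overlap, as in 99.7% of the listed genes, and for a lower value in PC, as in 61.5%. Calls depended on all 4 libraries. With any 1 library left out, Tek was not called (limma, Benjamini-Hochberg adjusted p from 0.27 to 0.53), nor was any other gene named here as called apart from Evx1, and with a prior without trend none of them was called (adjusted p from 0.14 to 0.21 apart from Evx1 at 0.056). Evx1 stayed called without either PD library and was not called without PC replicate 1 or 2 (limma, Benjamini-Hochberg adjusted p = 0.27 and 0.30).

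The proportional difference was close for both receptors although their levels were far apart. The log2 differences of Tek and Kdr lay 0.08 apart, less than the SD of 0.36 between replicates of that gap. Within a library the ratio of Tek to Kdr reads does not depend on the size factors. Tek had 40.1 and 65.0 times the reads of Kdr in PC replicates 1 and 2, against 52.0 and 42.7 times in PD replicates 1 and 2. The PD ratios lay between the PC ratios, so the balance of the transcripts did not separate the groups. Per kilobase of exon (4712 bases for Tek and 9030 for Kdr in GENCODE M21), Tek had 310.3 and 279.0 normalized reads in PC and 696.0 and 731.3 in PD. Kdr had 4.04 and 2.24 normalized reads per kilobase in PC and 6.98 and 8.93 in PD. Per kilobase the Tek level was thus 76.9 and 125.0 times that of Kdr in PC, and 99.7 and 81.9 times in PD. Exons of neither gene overlap those of another gene in GENCODE M21.

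Replicates of Tek were close and those of Kdr were not. Tek differed by 0.15 on the log2 scale between the PC libraries and by 0.07 between the PD libraries. Kdr differed by 0.82 between the PC libraries and by 0.35 between the PD libraries. Among 296 listed genes within 0.5 on the log2 scale of the mean level of Kdr, the median gap was 0.38 in PC and 0.28 in PD, and 56 of them had a larger gap in PC. Kdr was thus among the more variable genes of its level in PC, while in PD 123 of the 296 had a larger gap than Kdr. Among the 38 genes near the level of Tek the median gap was 0.1 in PC and 0.12 in PD. Of these 38 genes, 14 had a larger gap than Tek in PC and 29 in PD, so Tek lay above the median of its level in PC and below it in PD.

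Tek stood near the top of the listed genes in level. By normalized reads Tek ranked 53 of 1593 and Kdr ranked 828, near the middle of the table, where the median gene had 55.1. Per kilobase of exon Kdr stood lower. By the per-kilobase mean over the 4 libraries Tek ranked 68 of 1589 genes with an exon length, at 504.2 normalized reads per kilobase, and Kdr ranked 1336, at 5.55, against a median of 22.1. Neither difference was large for the table. Of the 980 genes with lower values in PC, 684 had a log2 difference further below 0 than Tek and 620 had one further below 0 than Kdr, and their median was -1.53.

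**Figure D2:**
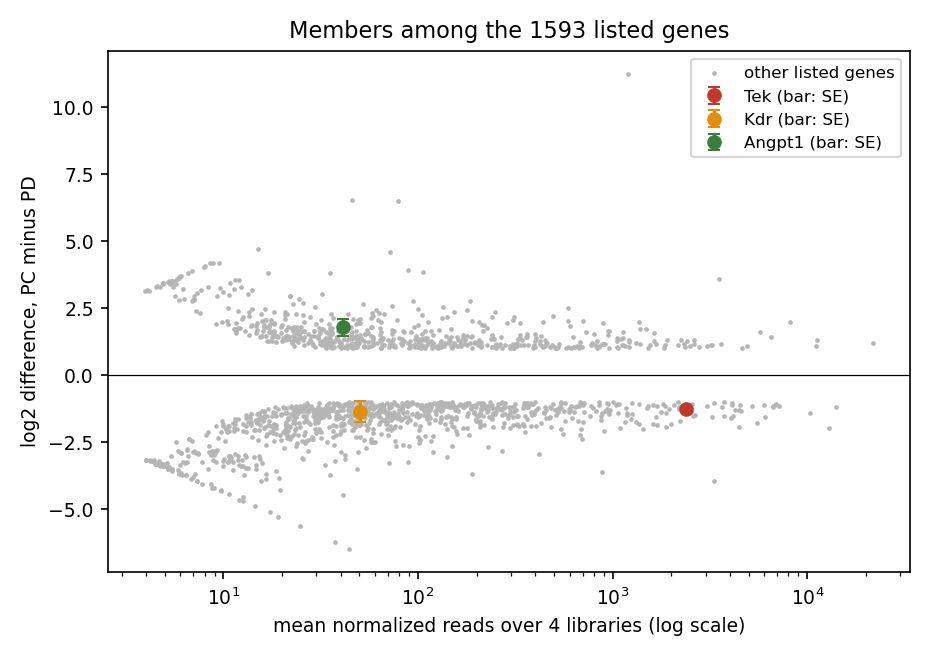
Log2 difference, PC minus PD, against the mean normalized reads over the 4 libraries (log axis) for the 1593 listed genes, with Tek, Kdr and Angpt1 in colour and bars of 1 SE. The empty band around 0 is the fold limit of the table. Tek (-1.28) and Kdr (-1.36) lie near its lower edge at different levels, and Angpt1 (1.79) lies above it.

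For the ligand of TEK the values lay the other way, without passing the test. Angpt1 (ENSMUSG00000022309), which encodes the activating angiopoietin, had 72.9 and 55.9 normalized reads in PC, against 16.5 and 19.2 in PD. Both PC libraries were above both PD libraries, from 88 and 47 reads in PC and 17 and 21 in PD. It averaged 64.4 ± 12.0 normalized reads in PC and 17.9 ± 1.95 in PD (SD, n = 2 each), a 3.61-fold ratio of the means. The log2 difference was 1.79 (SE 0.33) and missed the threshold (limma, Benjamini-Hochberg adjusted p = 0.12). In the authors' deposited table its false discovery rate was 0.000448. Within a library, Tek had 20.1 and 23.5 times the reads of Angpt1 in PC, against 199 and 179 times in PD. Per kilobase of exon the ratios were 22.2 and 26.0 in PC, against 220 and 198 in PD, so that Tek was the more abundant transcript in all 4 libraries and the excess was smaller in the libraries with CID755673. Exons of Angpt1 overlap an antisense gene, Gm17473, over 737 bases, and no source used here says whether the counting used strand, so its reads may come in part from either gene. Of 23 genes of the angiopoietin pathway only Angpt1 and Tek had a row, 8.70% of the list, against 5.07% of all genes the authors tested. Tek was chosen from the listed genes, and the list with earlier results of these data known, so no excess is read from this share. Angpt2, Tie1 and the phosphatase gene Ptprb had none and are not analysed here.

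For KDR no ligand or co-receptor could be set beside it. Of 19 VEGF ligands, receptors and co-receptors 1 had a row, which was Kdr itself, and Vegfa, Flt1 and Nrp1 are not analysed here. Of 39 signal transducers of VEGF receptors 2 had a row, 5.13% of the list, near the 5.07% of all genes the authors tested. Of the 2 limma called 1, where it called 31.1% of the listed genes. Rac1, a small GTPase of the actin cytoskeleton, had 8630.3 and 8590.1 normalized reads in PC and 2624.9 and 3015.2 in PD, and rose with a log2 difference of 1.61 (SE 0.10, limma, Benjamini-Hochberg adjusted p = 0.012). Its exons overlap those of Daglb on the other strand over 2309 bases, which makes the origin of its reads uncertain. Ptgs2, the inducible cyclooxygenase gene, had 159.9 and 138.0 normalized reads in PC and 292.8 and 423.4 in PD, and was not called (limma, Benjamini-Hochberg adjusted p = 0.10). Prkd1, Prkd2 and Prkd3, the protein kinase D genes, and Plcg1, Prkca, Hdac5 and Hdac7 had no row and are not analysed here.

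Tek and Kdr were 2 of 5 receptor tyrosine kinase genes with a row, out of 57 considered here. The 5 are 8.77% of these, against 5.07% of all genes the authors tested. Tek and Kdr were chosen from the listed genes and add to this share, so no excess is read from it. In PC 4 had lower and 1 had higher values, where 61.5% of all listed genes had lower values. limma called 3, 2 lower (Tek and Ddr2) and 1 higher, where it called 31.1% of the listed genes, 19.8% lower and 11.2% higher. Their median log2 difference was -1.36, which is the value of Kdr itself, against -1.17 over all listed genes. Ddr2, a receptor for collagen, fell to 185.6 and 164.2 normalized reads in PC, against 518.8 and 577.4 in PD (log2 difference -1.64, SE 0.14, limma, Benjamini-Hochberg adjusted p = 0.014). Ntrk3, the receptor for neurotrophin 3, rose to 338.8 and 347.4 normalized reads in PC, against 136.7 and 130.1 in PD (1.36, SE 0.13, limma, Benjamini-Hochberg adjusted p = 0.017). Alk, the anaplastic lymphoma kinase gene, had 25.7 and 25.0 normalized reads in PC and 67.9 and 71.5 in PD and was not called. Without Tek and Kdr the other 3 genes summed to 550.1 and 536.5 normalized reads in PC, against 723.4 and 779.0 in PD. Per kilobase of exon Tek had the highest level of the 5 in every library, and Ntrk3 was the 1 gene of the 5 with higher values in PC. Exons of Ddr2 overlap an antisense gene over 90 bases.

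**Figure D3:**
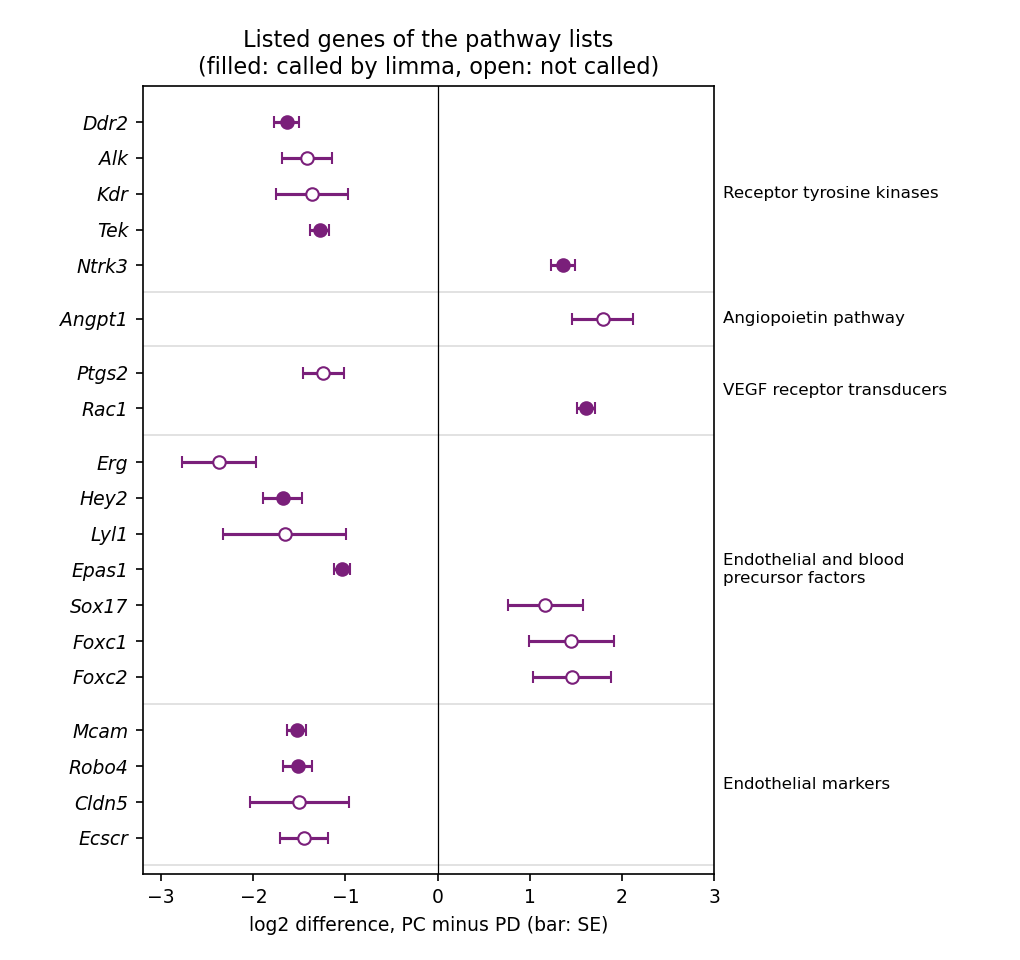
Log2 difference, PC minus PD, with bars of 1 SE for the listed genes of 5 lists, each gene drawn once. Filled points were called by limma and open points were not. The receptors lie left of 0 apart from Ntrk3 (1.36), Angpt1 (1.79) and Rac1 (1.61) lie right of it, and the endothelial markers all lie left.

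Transcription factors of endothelial and blood precursors were split. Of 26 genes 7 had a row, 26.9% of the list against 5.07% of all genes the authors tested. The list was chosen with earlier results of these data known, so no excess is read from this share. Of the 7, 4 had lower and 3 had higher values in PC, with a median log2 difference of -1.04. limma called 2 of the 7, both lower, against 19.8% of listed genes called lower. Epas1, which encodes the hypoxia-inducible factor HIF-2 alpha, fell to 836.8 and 814.9 normalized reads in PC, against 1736.7 and 1657.9 in PD (log2 difference -1.04, SE 0.09, limma, Benjamini-Hochberg adjusted p = 0.014). Hey2, a repressor downstream of Notch in arteries, fell to 43.9 and 41.6 normalized reads in PC, against 146.4 and 132.0 in PD (-1.68, SE 0.21, limma, Benjamini-Hochberg adjusted p = 0.034). Erg, an ETS factor of endothelial cells, had 9.94 and 7.14 normalized reads in PC, against 55.3 and 41.2 in PD. Its groups did not overlap and its log2 difference was -2.37 (SE 0.40), yet it was not called (limma, Benjamini-Hochberg adjusted p = 0.086). Lyl1, a basic helix-loop-helix factor of blood precursors, had 17.4 and 8.33 normalized reads in PC and 23.3 and 69.7 in PD, so that its PD libraries differed more from each other than the nearest PC and PD libraries did. The forkhead genes Foxc1 and Foxc2 and the endodermal and endothelial factor gene Sox17 had higher values in PC, with log2 differences from 1.17 for Sox17 to 1.46 for Foxc2, and none of the 3 was called. Etv2, Tal1, Fli1 and Gata2 had no row and are not analysed here.

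The endothelial markers with a row had lower values in PC, as 61.5% of all listed genes had. Of 21 markers 5 had a row, Tek among them, which is 23.8% of the list against 5.07% of all genes the authors tested. Tek was chosen from the listed genes and adds to this share. The list was chosen with earlier results of these data known, so no excess is read from the share. limma called 3 of the 5, all lower and Tek among them, against 19.8% of listed genes called lower. Mcam, an adhesion molecule of vessels also known as CD146, fell to 2015.7 and 1820.1 normalized reads in PC, against 5339.1 and 5753.7 in PD (log2 difference -1.53, SE 0.10, limma, Benjamini-Hochberg adjusted p = 0.012). Robo4, the endothelial Roundabout receptor gene, fell to 112.7 and 108.3 normalized reads in PC, against 289.0 and 352.8 in PD (-1.52, SE 0.16, limma, Benjamini-Hochberg adjusted p = 0.022). Ecscr, a regulator of endothelial chemotaxis, had 31.5 and 28.6 normalized reads in PC and 86.3 and 81.6 in PD, and Cldn5, a tight junction gene, had 14.9 and 5.95 in PC and 24.2 and 33.9 in PD. Neither of these was called. Without Tek the 4 markers summed to 2174.8 and 1962.8 normalized reads in PC, against 5738.6 and 6222.0 in PD, a ratio of the means of 0.346. Mcam made up most of each sum, and its own ratio was 0.346 too. The ratio was 0.344 for Robo4, 0.358 for Ecscr and 0.359 for Cldn5, against 0.413 for Tek. The fold limit of the table bounds all these ratios, so nothing is read from their likeness. The defining markers Pecam1, Cdh5, Flt1, Tie1 and Vwf had no row, so whether endothelial cells were present, and their part in the values of Tek and Kdr, was not tested. Exons of Mcam and Ecscr overlap antisense genes over 17 and 62 bases.

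Markers of further cell types that the culture might contain had from 0 to 4 rows per list. Of all genes the authors tested, 5.07% had a row. The lists were chosen with earlier results of these data known, so no excess over that share is read. Of the listed genes 61.5% were lower in PC, and limma called 31.1%, 19.8% lower and 11.2% higher. Of 20 genes of primitive streak and mesoderm, a tissue that Kdr marks, 4 had a row, which is 20.0% of the list. Kdr is among the 4 and was chosen from the listed genes, so it adds to this share. In PC 3 of the 4 had lower and 1 had higher values, and limma called 2, both lower. Fgf17, a fibroblast growth factor gene, fell to 211.3 and 223.6 normalized reads in PC, against 610.9 and 530.6 in PD (log2 difference -1.39, SE 0.13, limma, Benjamini-Hochberg adjusted p = 0.016). The homeobox gene Evx1 was called lower too, with 0 reads in both PC libraries and 25.2 and 33.0 normalized reads in PD, at least 9.61-fold lower against a floor of 3 reads per library. Hand2, a heart and limb factor gene, had 27.3 and 26.2 normalized reads in PC and 3.88 and 8.25 in PD and was not called. Exons of Evx1 and Hand2 overlap antisense genes over 73 and 461 bases. Without Kdr the 3 genes summed to 238.6 and 249.8 normalized reads in PC, against 640.0 and 571.9 in PD. Fgf17 made up most of each sum, and Hand2 went the other way. T, Mixl1, Mesp1 and Pdgfra are not analysed here. Of 10 pericyte and smooth muscle markers 1 had a row, Rgs5, with 30.7 and 14.3 in PC and 70.8 and 86.1 in PD. Of 9 fibroblast markers 1 had a row (11.1%), Col3a1, with 38.9 and 48.8 in PC and 89.2 and 113.6 in PD. Of 11 trophoblast markers 1 had a row (9.09%), Gata3, with 194.7 and 133.2 in PC and 380.1 and 384.0 in PD. None of these 3 was called. The 2 listed genes of 13 extra-embryonic endoderm markers (15.4%) were higher, summing to 466.4 and 511.5 normalized reads in PC and 221.1 and 209.9 in PD. Of the 2 limma called Gata6. Of 11 blood cell markers 0 had a row. The part of any of these cells in the levels of Tek and Kdr was not tested. Of genes known for embryonic stem cells, Lin28a had 3902.1 and 3659.2 normalized reads in PC and 8337.4 and 8075.2 in PD. Utf1 had 1787.0 and 1893.8 in PC and 6644.3 and 7460.2 in PD. Both were called lower (limma, Benjamini-Hochberg adjusted p = 0.014 for Lin28a and 0.012 for Utf1). Pou5f1, Sox2 and Nanog had no row, so the labelled cell type could be checked only in part.

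In the authors' deposited table Tek and Kdr shared 4 KEGG pathway annotations, of 6 for Tek and 10 for Kdr. These were the MAPK, Ras, Rap1 and PI3K-Akt signalling pathways, and Angpt1 carried all 4 as well. Of 26 listed genes with the MAPK annotation 20 were lower and 6 higher in PC, and limma called 10, 7 lower and 3 higher. Over all listed genes 61.5% were lower, and limma called 31.1%, 19.8% lower and 11.2% higher. Of 21 with the Ras annotation 16 were lower and 8 were called, 5 lower and 3 higher. Of 17 with the Rap1 annotation 15 were lower and 7 were called, 6 lower and 1 higher. Of 28 with the PI3K-Akt annotation 21 were lower and 11 were called, 9 lower and 2 higher. The pathways share many of their genes and each includes Tek and Kdr, so the counts are not independent of each other. Their median log2 differences ran from -1.28 for Ras to -1.19 for PI3K-Akt, against -1.17 over all listed genes. The fold limit of the table keeps the median of any mostly lower set beyond it, so nothing is read from this likeness. The VEGF signalling annotation was carried by 3 listed genes, Kdr, Rac1 and Ptgs2.

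The genes whose pattern over the 4 libraries was most like that of Tek were not those most like Kdr. Likeness was the Euclidean distance over the 4 libraries between the log2(normalized reads + 1) values of 2 genes, each less its own mean, among 1451 other listed genes with a mean of at least 10 normalized reads. The nearest to Tek were 9530027J09Rik (distance 0.023), the homeobox gene Otx2 (0.029), Gm16201 (0.051), Ramp3, which encodes a partner of calcitonin-type receptors (0.052), and Adcyap1r1, the receptor gene for the neuropeptide PACAP (0.052). Otx2 had 2565.0 and 2342.3 normalized reads in PC and 5913.2 and 6114.8 in PD, with both PC libraries below both PD libraries. Nearest to Kdr were Lax1, a lymphocyte adaptor gene (0.058), the muscarinic receptor gene Chrm3 (0.128), Gm35082 (0.134), Gm11635 (0.162) and the matrix gene Frem1 (0.168). Like Kdr, each of these 5 had its lowest value in PC replicate 2 and its highest in PD replicate 2. They were chosen for likeness to Kdr over these same libraries, so the shared order is no separate result. Lax1 had 29.0 and 16.7 normalized reads in PC and 49.5 and 64.2 in PD. Kdr ranked 428 by likeness to Tek, and Tek ranked 148 by likeness to Kdr, at a distance of 0.517. With 4 libraries in 2 groups such likeness rests on the group difference and on the gaps between replicates. Exons of 9530027J09Rik, Otx2, Gm16201 and Ramp3 overlap those of other genes.

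**Figure D4:**
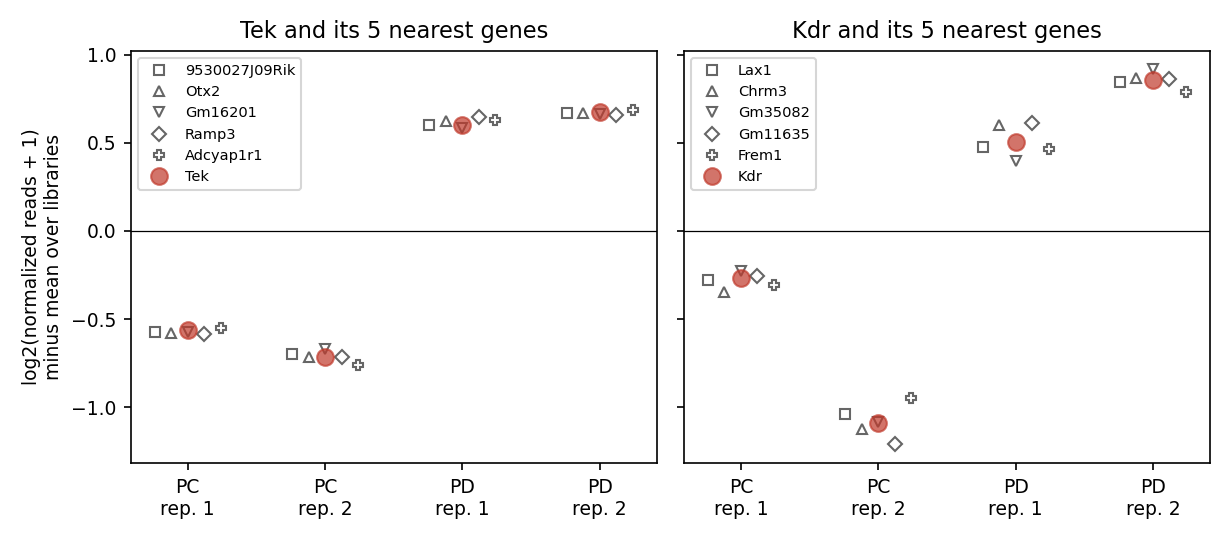
Values of log2(normalized reads + 1) less the mean over the 4 libraries, for Tek and its 5 nearest genes on the left and for Kdr and its 5 nearest on the right. Points are libraries of PC and PD. The Tek points lie close together within each group, whereas Kdr and its nearest genes have a gap between the PC libraries, 0.82 for Kdr. The nearest genes were chosen by this same pattern.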

How the data were processed

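Total RNA was sequenced in 4 libraries, per the labels' protocols. The authors deposited log2 values per library and the log2 fold change, p-value and false discovery rate of their own test. Bowtie 0.12.2 and build mm9 are named, per the submitters' processing notes. How reads were counted, on which strand, normalized and tested is not stated there or in the labels. Undoing the log and subtracting 1 gave whole multiples of 1 step per library for 100.0% of values (tolerance 0.001 reads), hence reads and size factors of 1.207 and 0.8406 for PC and 1.0313 and 1.0911 for PD. Reads on the listed genes totalled 601713 and 433684 in PC and 632042 and 683777 in PD, and full depth is unknown. The number of genes tested, 31432, follows from dividing the smallest p-value's false discovery rate by that p-value.

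All listed genes were fitted together with limma 3.58.1 (R 4.3.3) on log2(normalized reads + 1), using a trended prior, without a replicate block, which left 2 residual degrees of freedom. The filter, a mean of at least 1 normalized read, removed 0 genes. Benjamini-Hochberg adjustment ran over 31432 genes, with unlisted genes taken to have larger p-values, and a threshold of 0.05. In the authors' own test that does not hold for every listed gene. By its false discovery rate the largest listed p-value ranked 8099, although 1593 genes are listed. The limma p-values of unlisted genes are unknown. The spread and its prior came only from genes selected on these samples, which can favour calls. How often calls among genes selected in this way are wrong was not tested. List genes were matched by symbol, and a list gene without a row was not analysed. Some genes were left out of the lists and are not reported here. Exon lengths and overlaps are from GENCODE M21 (GRCm38) and sequences from RefSeq (GRCm38.p6), a build other than mm9, so no coordinates were joined to the files. Genes named are the members, genes of the lists with a row, and the 5 nearest to each member in pattern. Lin28a and Utf1 were added after their values were seen, as were the KEGG counts and within-library ratios. The members and lists were chosen with earlier results of these data known. No label says whether replicate numbers pair the libraries of the groups.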

Additional observations from a re-analysis of the deposited data

How the results depend on the processing

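The log2 difference, PC minus PD, kept its sign for both receptors under every alternative run on it. For Tek it ran from -1.35 without PC replicate 1 to -1.20 without PC replicate 2, and was -1.35 on reads without size factors. For Kdr it ran from -1.77 to -0.95 with a library left out, -1.39 with a pseudocount of 0.1 and -1.12 with a pseudocount of 10. The groups do not overlap, so leaving a library out could not turn the sign. The gap between the log2 differences, Tek minus Kdr, was 0.08 and ran from -0.25 to 0.41 with a library left out, so which receptor had the larger fall depended on the library.

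The number of listed genes called by limma, 495, depended on the settings. It was 33 without either PC library and 61 without either PD library, 64 on reads without size factors, 1 with a prior without trend and 2 at an adjusted p under 0.01. It was 1176 with the replicate block. The authors' deposited table gives 1119 genes a false discovery rate under 0.05, of which 441 were among the 495. A pseudocount of 0.1 or 10, voom on the recovered reads and another filter gave 417 to 661 calls. The adjusted p of Tek (limma with Benjamini-Hochberg adjustment) was 0.27 to 0.53 with a library left out, 0.41 without size factors and 0.18 with a prior without trend, where it was not called. That of Kdr was 0.039 with the replicate block and 0.25 or above under every other alternative run on it. Tek stayed called with a pseudocount of 0.1 or 10, voom, a filter at a mean of 10 normalized reads and the replicate block. In these fits its limma Benjamini-Hochberg adjusted p ran from 2.6e-14 with the block to 0.018 with the pseudocount of 0.1. At an adjusted p under 0.01 it was not called. Over 1593 genes the replicate gaps of PC and PD had a correlation of -5.8e-05, so these selected genes showed no shared replicate effect. That value cannot tell whether libraries with the same replicate number shared a culture or day, and no label says so. Where 1 library of a group was left, it was taken to vary as the other group did. Kdr had 17 to 88 reads per library, so its counting intervals were wide, and the part of counting error in its replicate gaps was not tested.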
